A study of Homo sapiens with 12 samples.

Results

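The 10 genes described here encode the chaperones that fold proteins inside mitochondria and the proteases that remove the ones that fail to fold. Their rows were taken by symbol, as every row of the deposited count table named HSPA9, HSPD1, HSPE1, TRAP1, LONP1, CLPP, CLPX, YME1L1, AFG3L2 or SPG7. The list of symbols was drawn up with earlier results of these data known. Each symbol had 1 row, so 10 of the 57353 rows were members, and all 10 passed the filter on low counts that left 14955 rows to test. HepG2, a human hepatocellular carcinoma cell line, was the source of all libraries. Sorafenib cultures received 10 µM sorafenib, a multikinase inhibitor given for liver cancer, for 12 h, and vehicle cultures received DMSO, the solvent of the drug. All cultures were given cycloheximide, which stalls ribosomes on mRNA, shortly before lysis, and dishes were combined into 1 lysate. Each lysate was run on a sucrose gradient and split into a polysome pool, mRNAs that carry several ribosomes, and a light pool of free complexes, ribosomal subunits and single ribosomes. With 3 cultures per treatment and 2 pools per culture there were 12 libraries in 4 groups of 3: sorafenib polysome, vehicle polysome, sorafenib light and vehicle light. The series is described as ribosome profiling, but its protocol describes RNA from whole pooled fractions.

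Proteins made in the cytosol enter mitochondria unfolded, are pulled into the matrix by the HSP70 protein that HSPA9 encodes, and are folded by it and by the barrel-shaped chaperonin built from the products of HSPD1 and HSPE1. Proteases powered by ATP take apart chains that misfold: LONP1 and the pair CLPX and CLPP act in the matrix, and YME1L1, AFG3L2 and SPG7 sit in the inner membrane. In mammals, damage to mitochondrial proteins is known to raise transcription of several of these genes, a programme called the mitochondrial unfolded protein response. In liver cancer cells several of these chaperones are abundant.

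Library totals ranged between 10011614 and 13336689 counts in the sorafenib polysome group, between 4769383 and 10584699 in the vehicle polysome group, between 511065 and 4989312 in the sorafenib light group and between 7387602 and 11955977 in the vehicle light group. Levels are counts per 1000000 counts (CPM), with library sizes scaled by TMM (trimmed mean of M values). They are relative to all other genes, and they do not serve to rank 1 gene against another because gene length was not taken into account. In bulk RNA, fewer cells of a kind and less RNA per cell cannot be told apart. The sorafenib light libraries stood apart: library 2 was the shallowest, with 7 to 478 counts per member, and the 3 correlated with each other at 0.797 to 0.934 over log2 CPM (Pearson, across genes), against 0.951 to 0.990 within each other group. The labels give sorafenib polysome library 3 the sample index that vehicle light library 1 carries. All 8 hepatocyte markers were detected in every group. Marker sums are given in CPM of raw totals, without TMM. The sum of the 8 was 26343 to 32965 CPM in the sorafenib polysome group and 6823 to 13681 CPM in the vehicle polysome group. It was 20078 to 25993 CPM in the sorafenib light group and 3188 to 6505 CPM in the vehicle light group. On this scale the sum was higher after sorafenib in both pools. Single markers were not compared, and the part of the markers in the results below was not tested. The 12 markers of leukocytes, fibroblasts and endothelium were near 0: the 4 of each type summed to at most 5.87 CPM in the other 3 groups and to at most 27.4 CPM in the sorafenib light group. Total RNA was not sequenced in these 12 libraries, so shifts of an mRNA onto polysomes and shifts in its amount cannot be told apart.

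On polysomes, 7 of the 10 genes rose under sorafenib (HSPA9, HSPD1, TRAP1, LONP1, CLPX, YME1L1 and AFG3L2), 2 fell (HSPE1 and CLPP), and SPG7 did not pass the test. Of all genes tested, 20.9% rose and 28.8% fell. The median log2 fold change was 1.16 over the 10 genes and -0.26 over all tested genes. The balance over all genes depended on scaling: 3130 rose and 4306 fell here, against 3917 and 3143 with TMM computed within each pool. The medians were then 1.39 and -0.03. With library totals 3554 rose and 3452 fell. Falls outnumbered rises with DESeq2 (3974 against 3357), with both replicate blocks and after thinning to the smallest total. Rises outnumbered falls with vehicle polysome library 1 as TMM reference (3662 against 3438) and with no filter on low counts (3904 against 1663). The same held with only the groups compared (4113 against 3385). Leaving out any single light library gave more rises, and leaving out any single polysome library gave more falls. A gene was called when its Benjamini-Hochberg adjusted p in the edgeR quasi-likelihood test was under 0.05. Both partners of the chaperonin and both partners of the CLPX and CLPP protease were called, and within each pair 1 gene rose and the other fell.

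**Figure D1:**
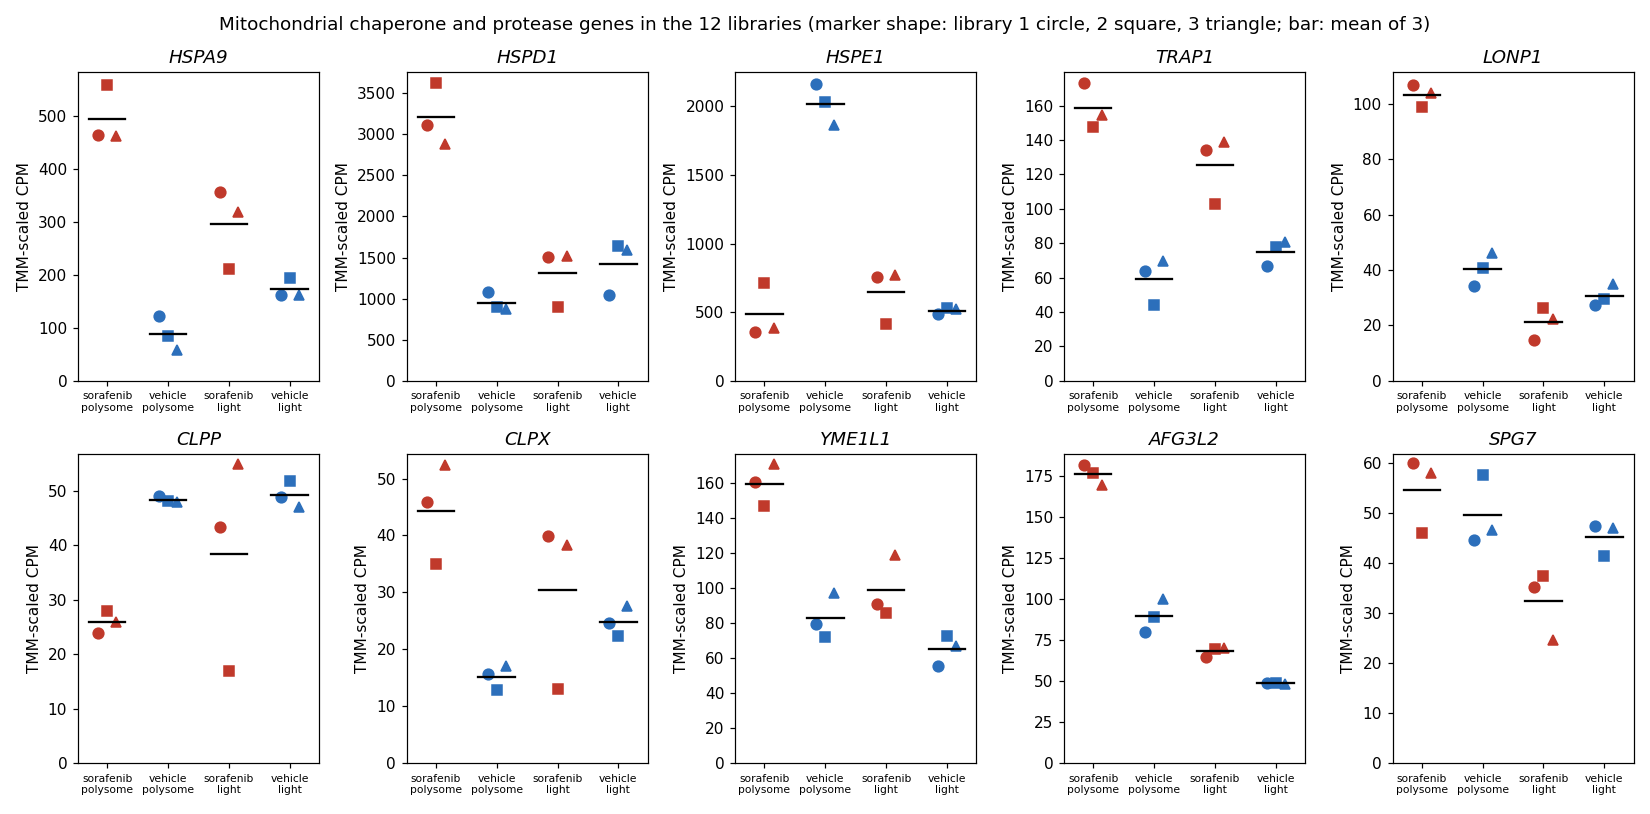
TMM-scaled CPM of the 10 genes (y axis, linear, from 0) in the 12 libraries, 1 panel per gene, with the groups sorafenib polysome, vehicle polysome, sorafenib light and vehicle light side by side; points are libraries and bars are means of 3. HSPA9 lies at 463 to 558 CPM in the sorafenib polysome libraries and at 58.2 to 122 CPM in the vehicle polysome libraries, while HSPE1 lies at 358 to 712 CPM and at 1862 to 2161 CPM in the same groups.

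HSPA9 encodes mortalin, the HSP70 of the matrix, which draws precursors through the import channel. It was at 464, 558 and 463 CPM in the sorafenib polysome libraries, against 122, 84.5 and 58.2 CPM in the vehicle polysome libraries. Every sorafenib library lay above every vehicle library, and the lowest sorafenib value was more than 3 times the highest vehicle value. Its mean was 495 ± 54.8 CPM with sorafenib and 88.2 ± 32.0 CPM with vehicle (SD, n = 3 each), a 5.61-fold rise (log2 2.49 ± 0.28, SE, adjusted p = 2.87e-06 by edgeR), higher than the fold change of 98.8% of tested genes.

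HSPD1 encodes HSP60, the subunit of the barrel in which matrix proteins fold. It was at 3118, 3623 and 2886 CPM in the sorafenib polysome libraries, against 1076, 902 and 872 CPM in the vehicle polysome libraries. The groups did not overlap, and the 3 vehicle libraries were close to each other. The rise was 3.38-fold (log2 1.76 ± 0.29, SE, adjusted p = 1.04e-04 by edgeR).

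HSPE1 encodes HSP10, the lid that closes the HSP60 barrel so that folding can proceed, and it went the other way. It was at 358, 712 and 383 CPM in the sorafenib polysome libraries, against 2161, 2031 and 1862 CPM in the vehicle polysome libraries. Sorafenib library 2 was the highest of its group, yet all 3 sorafenib libraries lay below all 3 vehicle libraries. The fall was 4.17-fold (log2 -2.06 ± 0.31, SE, adjusted p = 4.07e-05 by edgeR), and only 4.13% of tested genes had a lower fold change.

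Counts could be shared with a neighbouring row, because HSPE1-MOB4, a read-through gene, contains the HSPE1 exons and is counted as a row of its own. Its counts were 47.3% to 59.3% of those of HSPE1 in the sorafenib polysome libraries and 35.1% to 40.9% in the vehicle polysome libraries. The HSPE1-MOB4 row fell as well, with log2 -1.62 ± 0.34 (SE, adjusted p = 7.23e-04 by edgeR), whereas MOB4, the gene at the other end of the read-through transcript, had log2 0.02 ± 0.28 (SE, adjusted p = 0.953). With both rows summed before the fit, a choice made after seeing the data, HSPE1 had log2 -1.92 (adjusted p = 1.11e-04 by edgeR). Pseudogene rows held less: the 17 rows named after HSPD1 held at most 2.93% of the HSPD1 count in any library and the 26 named after HSPE1 at most 4.07% of the HSPE1 count. The 1 row named after AFG3L2 held up to 8.11% of the AFG3L2 count.

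HSPD1 and HSPE1 are neighbours that are read in opposite directions from a common stretch of DNA, which is shown because the 2 genes went opposite ways on polysomes. In RefSeq (GRCh38.p14) a promoter window spans 250 bases before to 50 after a start site, and 8 of the 10 genes had at least 1 window in the table used. CLPP and YME1L1 were not among them. The start sites of HSPE1 and HSPD1 lie 105 bases apart on chromosome 2, and their windows overlap over 204 bases. The first sequence below is that overlap, chr2:197500225-197500428, plus strand, 5′ to 3′, with an E-box (CACGTG, its own reverse complement) in capitals. The second holds the first 60 bases of the window of another HSPD1 start site, chr2:197500031-197500090, minus strand, with a heat shock element core (GAANNTTC) in capitals.
HSPE1 and HSPD1 shared stretch: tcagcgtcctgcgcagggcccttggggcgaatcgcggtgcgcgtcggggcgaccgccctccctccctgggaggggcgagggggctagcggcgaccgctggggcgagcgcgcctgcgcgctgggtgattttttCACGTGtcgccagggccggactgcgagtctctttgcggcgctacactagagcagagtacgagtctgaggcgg
HSPD1 second window, first 60 bases: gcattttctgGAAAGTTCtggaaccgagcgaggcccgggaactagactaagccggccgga

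The same E-box stood in a window of HSPA9 and in a window of LONP1, shown here as the other windows that hold it. TRAP1, CLPX and AFG3L2, which also rose on polysomes, had no CACGTG in their windows, and HSPE1, which fell, had it. Any relation between the motif and the change on polysomes was not tested. The 2 windows shown lie on the minus strand, at chr5:138575352-138575651 for HSPA9 and at chr19:5720097-5720396 for LONP1, with CACGTG in capitals. The LONP1 window shown holds it at 2 places, and another LONP1 window, chr19:5720403-5720702, does not hold it.
HSPA9 window: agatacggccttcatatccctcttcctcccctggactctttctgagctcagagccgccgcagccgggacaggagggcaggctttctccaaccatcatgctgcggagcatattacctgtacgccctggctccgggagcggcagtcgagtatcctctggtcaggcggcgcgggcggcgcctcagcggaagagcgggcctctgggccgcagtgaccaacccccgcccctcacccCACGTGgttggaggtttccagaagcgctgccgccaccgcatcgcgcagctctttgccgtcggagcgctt
LONP1 window: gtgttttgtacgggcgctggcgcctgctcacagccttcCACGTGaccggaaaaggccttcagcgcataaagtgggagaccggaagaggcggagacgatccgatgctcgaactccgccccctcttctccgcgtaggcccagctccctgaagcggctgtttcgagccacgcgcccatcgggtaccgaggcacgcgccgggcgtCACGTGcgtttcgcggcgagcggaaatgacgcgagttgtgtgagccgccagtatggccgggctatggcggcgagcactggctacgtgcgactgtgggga

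Searched on both strands, CACGTG was in a window of 4 of the 8 genes (HSPA9, HSPD1, HSPE1 and LONP1, with HSPD1 and HSPE1 counting the same copy), against 8.78% of all 27305 genes with a window. The heat shock core GAANNTTC was in 1 of the 8 (HSPD1), against 8.21% of all genes, and the composite core TGATGNAA of C/EBP and ATF factors was in none of the 8, against 4.46% of all genes. A match describes letters in a window and does not show that a protein binds there.

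TRAP1 encodes the HSP90 of mitochondria. It was at 173, 148 and 155 CPM in the sorafenib polysome libraries, against 64.0, 43.9 and 69.6 CPM in the vehicle polysome libraries. The groups did not overlap, and the rise was 2.67-fold (log2 1.42 ± 0.22, SE, adjusted p = 5.56e-05 by edgeR).

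LONP1 encodes the Lon protease, which degrades misfolded and oxidised matrix proteins. Its 3 sorafenib polysome libraries gave 107, 98.8 and 104 CPM, against 34.3, 40.9 and 46.2 CPM in the vehicle polysome libraries. Replicates agreed within a narrow band in both groups, with means of 103 ± 4.16 CPM with sorafenib and 40.5 ± 5.99 CPM with vehicle (SD, n = 3 each). The rise was 2.55-fold (log2 1.35 ± 0.22, SE, adjusted p = 6.59e-05 by edgeR).

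CLPX encodes the unfoldase that threads proteins into the CLPP chamber. It was at 45.9, 34.9 and 52.3 CPM in the sorafenib polysome libraries, against 15.7, 12.8 and 17.1 CPM in the vehicle polysome libraries. Each sorafenib library was above each vehicle library, a 2.90-fold rise (log2 1.54 ± 0.27, SE, adjusted p = 1.39e-04 by edgeR).

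CLPP encodes the chamber with the peptidase sites. It was at 23.8, 27.9 and 26.0 CPM in the sorafenib polysome libraries, against 49.1, 48.2 and 47.9 CPM in the vehicle polysome libraries. The groups did not overlap, and the vehicle libraries were nearly equal. The fall was 1.87-fold (log2 -0.90 ± 0.25, SE, adjusted p = 0.00589 by edgeR), and 27.1% of tested genes had a lower fold change. The call was lost with no filter on low counts (adjusted p = 0.481) and without sorafenib light library 1 (0.0604), vehicle light library 1 (0.0837), 2 (0.0876) or 3 (0.0724), with log2 values between -0.65 and -0.50 in those 5 settings.

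The proteases of the inner membrane are hexameric rings of AAA type. YME1L1, whose active sites face the space between the membranes, was at 161, 147 and 171 CPM in the sorafenib polysome libraries, against 79.6, 71.9 and 97.2 CPM in the vehicle polysome libraries. It rose 1.92-fold without overlap (log2 0.94 ± 0.21, SE, adjusted p = 0.00134 by edgeR). AFG3L2, which faces the matrix and forms rings by itself or with paraplegin, was at 181, 177 and 169 CPM in the sorafenib polysome libraries, against 79.9, 88.8 and 100.1 CPM in the vehicle polysome libraries. It rose 1.96-fold without overlap (log2 0.97 ± 0.19, SE, adjusted p = 4.16e-04 by edgeR). SPG7, which encodes paraplegin and is named for a hereditary spastic paraplegia, was at 60.0, 46.0 and 58.0 CPM in the sorafenib polysome libraries, against 44.5, 57.6 and 46.7 CPM in the vehicle polysome libraries. Its groups overlapped (log2 0.14 ± 0.21, SE, adjusted p = 0.594 by edgeR), and after all libraries were thinned to the smallest total its log2 value was -0.22.

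**Figure D2:**
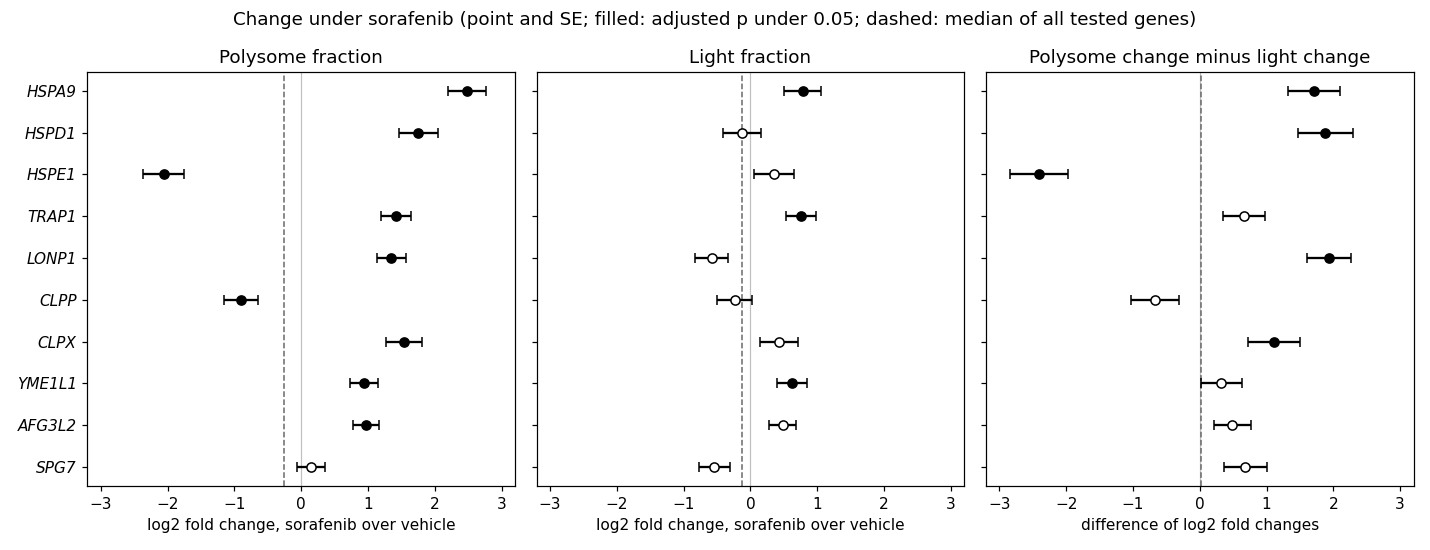
Log2 fold changes of the 10 genes (x axis) with SE bars, genes down the page: sorafenib over vehicle on polysomes (left), sorafenib over vehicle in the light pool (middle) and the first minus the second (right), with filled points for an adjusted p under 0.05 and a dashed line at the median of all tested genes. On polysomes the points span -2.06 (HSPE1) to 2.49 (HSPA9), and in the light pool -0.58 (LONP1) to 0.78 (HSPA9).

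In the light pool 3 of the 10 genes rose under sorafenib (HSPA9, TRAP1 and YME1L1), none fell, and 7 did not pass the test. Of all genes tested, 11.7% rose and 17.7% fell in this pool, and the median log2 fold change was 0.39 over the 10 genes and -0.12 over all tested genes. The count of 3 rested on single libraries and on scaling: no gene was called without sorafenib light library 3 or without vehicle light library 1 or 2, 1 was called without each of sorafenib light library 1, vehicle light library 3, vehicle polysome library 2 and sorafenib polysome libraries 1, 2 and 3, 5 without sorafenib light library 2, 6 when scaled by library totals alone, 1 after thinning all libraries to the smallest total, and none with no filter on low counts.

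HSPA9 was at 356, 211 and 319 CPM in the sorafenib light libraries, against 163, 195 and 162 CPM in the vehicle light libraries. The groups did not overlap, with the shallow sorafenib library 2 nearest to vehicle, and the rise was 1.72-fold (log2 0.78 ± 0.27, SE, adjusted p = 0.0380 by edgeR). TRAP1 was at 134, 103 and 139 CPM in the sorafenib light libraries, against 66.5, 77.6 and 80.7 CPM in the vehicle light libraries, a rise of 1.69-fold (log2 0.76 ± 0.23, SE, adjusted p = 0.0164 by edgeR). YME1L1 was at 91.0, 86.0 and 119 CPM in the sorafenib light libraries, against 55.4, 72.5 and 67.0 CPM in the vehicle light libraries. It too did not overlap and rose 1.54-fold (log2 0.62 ± 0.22, SE, adjusted p = 0.0396 by edgeR).

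Both chaperonin genes overlapped between treatments in the light pool. HSPD1 was at 1510.0, 894 and 1518 CPM in the sorafenib light libraries, against 1043, 1642 and 1596 CPM in the vehicle light libraries (log2 -0.12 ± 0.29, SE, adjusted p = 0.776 by edgeR), and the sign turned to 0.32 with library totals. HSPE1 was at 758, 413 and 774 CPM in the sorafenib light libraries, against 484, 528 and 523 CPM in the vehicle light libraries (log2 0.35 ± 0.30, SE, adjusted p = 0.403 by edgeR). In each gene the shallow sorafenib library 2 was the lowest of its group.

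LONP1 had few reads in the light pool after sorafenib, 25, 14 and 96 counts. These came to 14.7, 26.2 and 22.4 CPM in the sorafenib light libraries, against 27.2, 29.6 and 35.1 CPM in the vehicle light libraries. The groups did not overlap, but the difference did not pass the test (log2 -0.58 ± 0.25, SE, adjusted p = 0.0844 by edgeR). AFG3L2 also did not overlap, at 64.6, 69.2 and 70.1 CPM in the sorafenib light libraries, against 48.5, 48.5 and 48.3 CPM in the vehicle light libraries (log2 0.49 ± 0.20, SE, adjusted p = 0.0760 by edgeR). SPG7 was at 35.2, 37.4 and 24.5 CPM in the sorafenib light libraries, against 47.4, 41.4 and 46.9 CPM in the vehicle light libraries (log2 -0.54 ± 0.24, SE, adjusted p = 0.0946 by edgeR). Its groups were apart as well.

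CLPP was at 43.4, 16.8 and 54.9 CPM in the sorafenib light libraries, against 48.8, 51.8 and 47.1 CPM in the vehicle light libraries (log2 -0.24 ± 0.26, SE, adjusted p = 0.524 by edgeR). CLPX was at 39.9, 13.1 and 38.3 CPM in the sorafenib light libraries, against 24.7, 22.3 and 27.6 CPM in the vehicle light libraries (log2 0.42 ± 0.28, SE, adjusted p = 0.272 by edgeR). In both genes the low value was that of the shallow library 2, which held 9 counts of CLPP and 7 of CLPX, and without it CLPP had log2 0.13 (adjusted p = 0.659) and CLPX 0.78 (adjusted p = 0.0182).

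A further comparison asked whether the change under sorafenib differed between the pools, by the interaction of treatment and pool. The change was greater on polysomes than in the light pool for 4 of the 10 genes (HSPA9, HSPD1, LONP1 and CLPX) and lower for 1 (HSPE1), against 12.8% and 10.7% of all tested genes. The median difference was 0.67 over the 10 genes and 0.02 over all tested genes. HSPE1 had the difference of greatest size among the 10, -2.41 ± 0.43 on the log2 scale (SE, adjusted p = 6.37e-04 by edgeR). LONP1 had 1.93 ± 0.33 (adjusted p = 3.99e-04), HSPD1 1.88 ± 0.41 (adjusted p = 0.00275), HSPA9 1.71 ± 0.39 (adjusted p = 0.00358) and CLPX 1.11 ± 0.39 (adjusted p = 0.0426). The call for CLPX was lost in 6 of 21 settings, with adjusted p between 0.0581 and 0.114: with library totals, without both shallow sorafenib light libraries, and without each of sorafenib polysome libraries 1 and 3 and vehicle polysome libraries 1 and 2. TRAP1 (0.66 ± 0.31, SE, adjusted p = 0.137), SPG7 (0.68 ± 0.32, adjusted p = 0.130), AFG3L2 (0.49 ± 0.28, adjusted p = 0.217), YME1L1 (0.32 ± 0.31, adjusted p = 0.483) and CLPP (-0.67 ± 0.36, adjusted p = 0.194) did not pass this test.

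Partner genes were then set against each other within each library, as a ratio of counts that does not depend on how libraries are scaled. The exact permutation test of 3 against 3 libraries (both sides) cannot give a p under 0.1, and the 8 tests of 4 ratios in 2 pools gave an adjusted p of at least 0.16. For 1 count of HSPD1 there were 0.115, 0.196 and 0.133 counts of HSPE1 in the sorafenib polysome libraries, against 2.01, 2.25 and 2.14 in the vehicle polysome libraries. The lid gene thus had fewer counts than the barrel gene in all sorafenib polysome libraries and more in all vehicle polysome libraries. The ratio was 14.8-fold lower with sorafenib (log2 difference -3.88, exact permutation p = 0.1). Gene length was not taken into account, and the HSPE1-MOB4 row was left out. In the light pool the ratio was 0.502, 0.462 and 0.510 with sorafenib, against 0.464, 0.322 and 0.328 with vehicle. These overlapped (log2 difference 0.42, exact permutation p = 0.2).

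The ratio of CLPX to CLPP was 1.92, 1.25 and 2.01 in the sorafenib polysome libraries, against 0.320, 0.265 and 0.356 in the vehicle polysome libraries. It was 5.44-fold higher with sorafenib, without overlap (log2 difference 2.44, exact permutation p = 0.1). In the light pool it was 0.919, 0.778 and 0.698 with sorafenib and 0.505, 0.431 and 0.586 with vehicle, 1.58-fold higher (exact permutation p = 0.1).

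The ratio of SPG7 to AFG3L2, partners in the mixed ring, was 0.331, 0.260 and 0.343 in the sorafenib polysome libraries, against 0.557, 0.649 and 0.466 in the vehicle polysome libraries. In the light pool it was 0.545, 0.541 and 0.350 with sorafenib, against 0.977, 0.854 and 0.970 with vehicle. It was lower with sorafenib in both pools without overlap, by 1.79-fold on polysomes and 1.99-fold in the light pool (exact permutation p = 0.1 in each). The ratio of YME1L1 to AFG3L2, the proteases of the 2 faces of the membrane, was 0.886, 0.832 and 1.01 in the sorafenib polysome libraries, against 0.996, 0.810 and 0.971 in the vehicle polysome libraries. The groups overlapped there (log2 difference -0.03, exact permutation p = 1) and in the light pool (log2 difference 0.11, exact permutation p = 0.5).

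**Figure D3:**
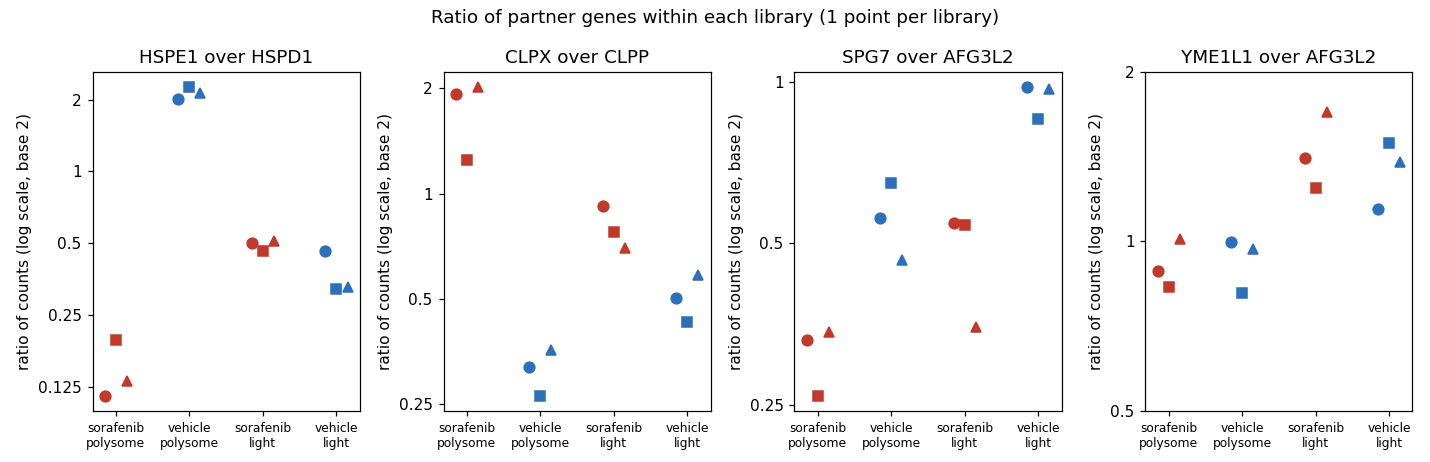
Ratio of the counts of partner genes within each library (y axis, log scale with base 2), 1 panel per pair, with sorafenib left of vehicle for polysome and then light libraries; points are libraries. The ratio of HSPE1 to HSPD1 is at 0.115 to 0.196 in the sorafenib polysome libraries and at 2.01 to 2.25 in the vehicle polysome libraries.

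The 2 pools of each culture were also compared with each other. These values depend on scaling: scaled by library totals alone, the median gene had a log2 value, polysome over light, of 0.60 in sorafenib cultures and 0.82 in vehicle cultures, against 0.00 and -0.06 with TMM, so directions below are relative to the typical gene. In sorafenib cultures 5 of the 10 genes were higher on polysomes (HSPD1, LONP1, YME1L1, AFG3L2 and SPG7) and none was lower with TMM, against 13.4% and 12.4% of all tested genes, and 8 were higher with library totals. In vehicle cultures 2 were higher (HSPE1 and AFG3L2) and 2 lower (HSPA9 and CLPX) with TMM, against 18.3% and 17.8% of all tested genes, and 7 were higher and none lower with library totals. The median log2 value was 0.70 over the 10 genes in sorafenib cultures and 0.05 in vehicle cultures.

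LONP1 had the highest fitted value of the 10 genes in sorafenib cultures, and in culture 2 only HSPD1 was above it. Its polysome level exceeded its light level by 2.85, 1.91 and 2.20 on the log2 scale in sorafenib cultures 1, 2 and 3, against 0.33, 0.46 and 0.40 in vehicle cultures. In the fit this was 2.34 ± 0.25 with sorafenib (SE, adjusted p = 8.35e-06 by edgeR) and 0.40 ± 0.22 with vehicle (SE, adjusted p = 0.158). HSPE1 showed the opposite order, with -1.08, 0.78 and -1.01 in sorafenib cultures, against 2.16, 1.94 and 1.83 in vehicle cultures. Sorafenib culture 2, whose light library is the shallow one, was the only 1 of the 3 above 0. The fit gave HSPE1 -0.43 ± 0.30 with sorafenib (SE, adjusted p = 0.318), which turned to 0.15 with library totals, and 1.98 ± 0.31 with vehicle (SE, adjusted p = 7.63e-05 by edgeR).

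AFG3L2 leaned to polysomes in all 6 cultures, by 1.49, 1.35 and 1.27 with sorafenib and by 0.72, 0.87 and 1.05 with vehicle. HSPA9 was at 0.38, 1.40 and 0.53 in sorafenib cultures, against -0.42, -1.20 and -1.48 in vehicle cultures, and HSPD1 at 1.05, 2.02 and 0.93, against 0.04, -0.86 and -0.87. Every sorafenib culture was above every vehicle culture in both genes. In sorafenib cultures the fit gave HSPD1 1.29 ± 0.29 (SE, adjusted p = 0.00340 by edgeR) and HSPA9 0.73 ± 0.27 (SE, adjusted p = 0.0543), which was called with culture as a replicate block (0.76, adjusted p = 0.0459) and in 11 further settings of 22, DESeq2 (0.69, adjusted p = 0.0431) and library totals (1.31, adjusted p = 4.54e-04) among them. The lower polysome level of HSPA9 in vehicle cultures (log2 -0.97 ± 0.27, SE, adjusted p = 0.00883 by edgeR) shrank to -0.09 with library totals (adjusted p = 0.766), and was not called without vehicle polysome library 3 (-0.74, adjusted p = 0.0729) or vehicle light library 2 (-0.83, adjusted p = 0.0844). SPG7, higher on polysomes in sorafenib cultures (log2 0.81 ± 0.24, SE, adjusted p = 0.0163), was at 0.76, 0.30 and 1.23 there, against -0.09, 0.47 and -0.01 in vehicle cultures, which overlapped, and after thinning its sorafenib value turned to -0.04. The lower polysome level of CLPX in vehicle cultures (log2 -0.70 ± 0.27, SE, adjusted p = 0.0489) was called in 7 of 22 other settings and turned to 0.19 with library totals (adjusted p = 0.554). The call for YME1L1 in sorafenib cultures (log2 0.67 ± 0.22, SE, adjusted p = 0.0296) was lost in 6 of 22 settings, without both shallow sorafenib light libraries among them (0.55, adjusted p = 0.192).

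**Figure D4:**
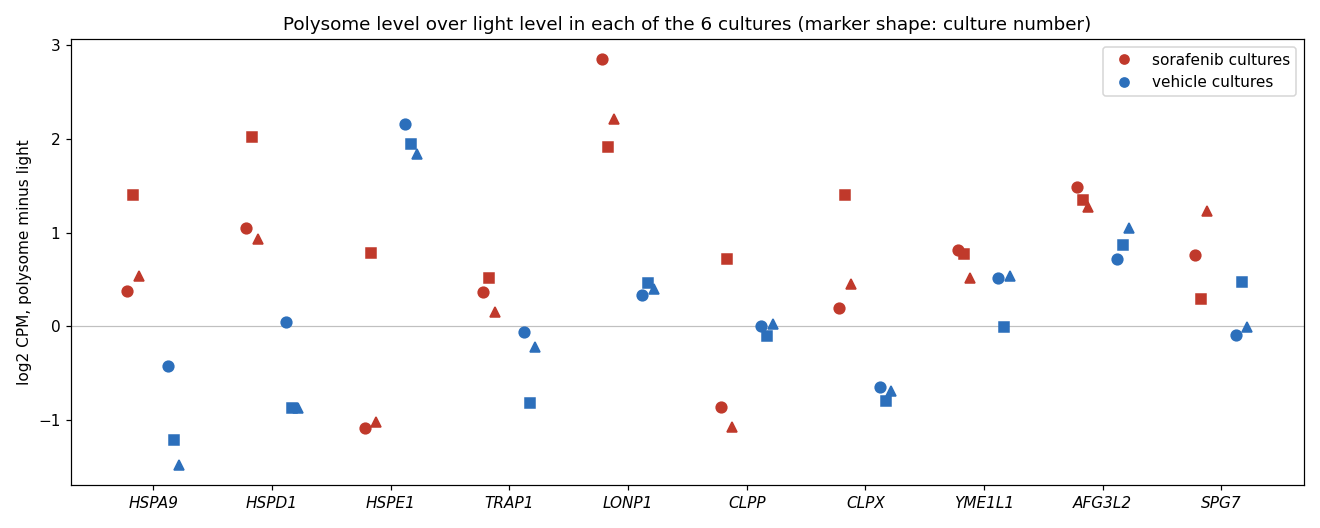
Log2 CPM on polysomes minus log2 CPM in the light pool (y axis, TMM scaling) for the 10 genes in each of the 3 sorafenib cultures and 3 vehicle cultures; points are cultures. LONP1 is at 1.91 to 2.85 in sorafenib cultures and 0.33 to 0.46 in vehicle cultures, and HSPE1 is at -1.08 to 0.78 in sorafenib cultures and 1.83 to 2.16 in vehicle cultures; with library totals the fitted value of HSPE1 in sorafenib cultures turns to 0.15.

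Together the 10 genes took 0.621%, 0.729% and 0.630% of all counts in the sorafenib polysome libraries, against 0.457%, 0.400% and 0.397% in the vehicle polysome libraries. In the light pool the share was 0.252%, 0.196% and 0.264% with sorafenib, against 0.128%, 0.186% and 0.172% with vehicle. As shares of raw totals, without TMM, the groups did not overlap in either pool. The TMM factors that scale the totals elsewhere were 0.835, 1.10 and 0.860 in the sorafenib light libraries. In the vehicle light libraries they were 0.637, 0.688 and 0.654. Once the shares were divided by these factors, the groups overlapped in the light pool. Sorafenib light library 2 then lay below every vehicle light library. HSPD1 made up more of the counts of the 10 genes than any other member in every sorafenib polysome library and every light library. HSPE1 did so in every vehicle polysome library. These are ranks of raw counts, which do not take gene length into account and leave out the HSPE1-MOB4 row.

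Other genes of mitochondrial protein quality control were counted from 3 lists, whose counts on polysomes stand against 20.9% of all tested genes higher and 28.8% lower. Of 8 co-chaperones and other matrix chaperones, 1 rose on polysomes, 3 fell and 4 did not pass the test (median log2 -0.35). DNAJC19, a J-domain protein of the import motor that works with HSPA9, averaged 26.9 ± 8.97 CPM in the sorafenib polysome libraries and 97.4 ± 23.6 CPM in the vehicle polysome libraries (SD, n = 3 each; log2 -1.85 ± 0.26, SE, adjusted p = 2.01e-05 by edgeR). HSCB, a J-domain protein of iron-sulfur cluster assembly, averaged 12.1 ± 1.23 CPM and 38.2 ± 15.4 CPM in the same groups (log2 -1.65 ± 0.26, SE, adjusted p = 5.58e-05). GRPEL2, a nucleotide exchange factor of HSPA9, rose to 44.4 ± 7.95 CPM with sorafenib, against 18.4 ± 1.72 CPM with vehicle (log2 1.26 ± 0.25, SE, adjusted p = 5.14e-04).

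Of 15 processing and quality-control proteases and their scaffolds, 5 rose on polysomes, 2 fell and 8 did not pass the test (median log2 0.05). PMPCB, a subunit of the peptidase that removes import signals, averaged 53.8 ± 0.915 CPM in the sorafenib polysome libraries and 19.9 ± 4.32 CPM in the vehicle polysome libraries (SD, n = 3 each; log2 1.43 ± 0.22, SE, adjusted p = 4.61e-05 by edgeR). MIPEP, which trims the new end of some of those proteins, averaged 30.0 ± 4.08 CPM and 8.59 ± 2.99 CPM in the same groups (log2 1.77 ± 0.29, SE, adjusted p = 7.19e-05). LACTB, a serine protease-like protein of the space between the membranes, lay at 25.3 to 33.4 CPM and at 12.1 to 15.7 CPM (log2 1.12 ± 0.22, SE, adjusted p = 3.58e-04).

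Of 5 transcription factors linked to the mitochondrial unfolded protein response, 2 rose on polysomes, 1 fell and 2 did not pass the test. DDIT3, which encodes the stress factor CHOP, averaged 72.0 ± 16.9 CPM in the sorafenib polysome libraries and 15.2 ± 5.87 CPM in the vehicle polysome libraries (SD, n = 3 each; log2 2.23 ± 0.37, SE, adjusted p = 8.58e-05 by edgeR). ATF5, the factor most often tied to this response, averaged 20.3 ± 4.90 CPM and 48.2 ± 4.90 CPM in the same groups (log2 -1.24 ± 0.23, SE, adjusted p = 2.54e-04). CEBPB, a partner of CHOP, averaged 177 ± 72.7 CPM and 104 ± 15.1 CPM (log2 0.77 ± 0.28, SE, adjusted p = 0.0289), with groups that overlapped. In the light pool 3 of the 5 fell and none rose, against 17.7% and 11.7% of all tested genes: ATF5, with log2 -1.42 ± 0.26 (SE, adjusted p = 5.92e-04 by edgeR), and ATF4 and HSF1, which are named after their values were seen. ATF4, a factor of the integrated stress response, had log2 -1.94 ± 0.29 (SE, adjusted p = 1.42e-04), and HSF1, the heat shock factor, -1.23 ± 0.29 (SE, adjusted p = 0.00345), while DDIT3 (0.29 ± 0.37, adjusted p = 0.572) and CEBPB (-0.17 ± 0.29, adjusted p = 0.702) did not pass the test.

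**Figure D5:**
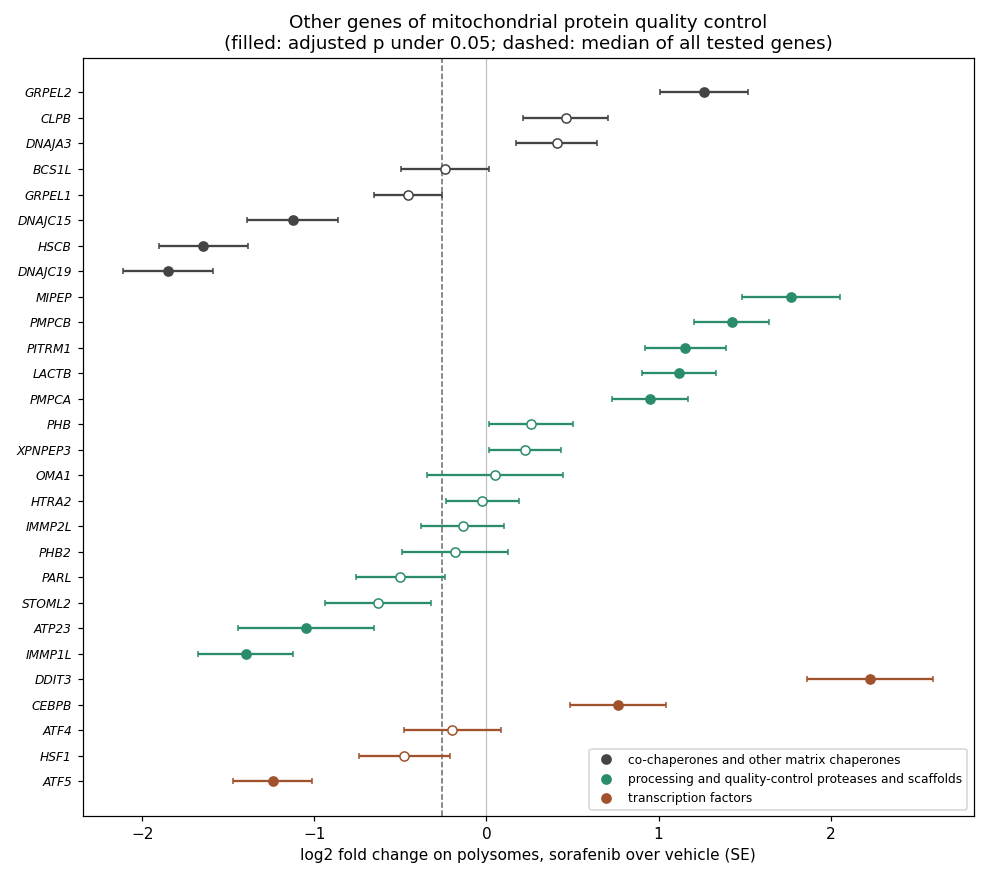
Log2 fold change on polysomes, sorafenib over vehicle (x axis), with SE bars for the 28 genes of the 3 lists, coloured by list, with filled points for an adjusted p under 0.05 and a dashed line at the median of all tested genes. DNAJC19 is at -1.85, MIPEP at 1.77 and DDIT3 at 2.23.

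Genes with levels most like those of a member over the 12 libraries were sought among tested genes whose mean log2 CPM reached 3, by Pearson correlation of log2 CPM. The libraries fall into 4 groups, so these values describe likeness of group pattern and carry no test. For HSPA9 they were STAT3 (0.984), VPS35 (0.983), CRNKL1 (0.981) and DDX10 (0.981). For HSPD1 they were NOLC1 (0.987), HDGFL2 (0.977), MCM10 (0.972) and RNF20 (0.959). For HSPE1 they were CISD1 (0.982), RPL36AL (0.973), HSPB11 (0.970) and CKS1B (0.969). The 3 sets had no gene in common, but sets of 4 genes are too short to set the patterns apart. Over the same 12 libraries HSPA9 and HSPD1 correlated with each other at 0.852. With HSPE1 they correlated at -0.695 and -0.537.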

How the data were processed

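The authors deposited 1 table of raw counts per gene, not normalized, with 1 column for each of the 12 libraries; per the submitters' processing notes the build is GRCh38.p12. Not given in the sources used here: aligner, counter, annotation, strand. The members and lists were chosen with earlier results of these data known. From the deposited counts, edgeR 4.0.16 (R 4.3.3, limma 3.58.1) filtered rows with filterByExpr on the 4 groups, scaled by TMM and fitted all 12 libraries with the quasi-likelihood test and no block, with Benjamini-Hochberg adjustment over 14955 genes. SE is the size of the log2 fold change divided by the root of F. Rows not tested (42398) made up 4.54% or less of each library. Named genes were all 10 members, the 3 of each further list with the smallest p on polysomes, the read-through and pseudogene rows, and the 4 genes most like each of HSPA9, HSPD1 and HSPE1. In simulated counts of 14690 genes at these depths, 99 of 100 4-fold and 39 of 100 2-fold changes on polysomes were called. Changed genes were drawn only from those with a higher mean CPM, and the 4 groups otherwise had equal means. The labels speak of triplicate experiments; if the cultures were not separate, p-values measure only the spread between libraries. Between replicates, chi-square over its degrees of freedom was 8.71 to 49.0, beyond sampling noise. Titles pair the pools of a culture (deviations from group means correlated at -0.07 to 0.33); numbers do not pair treatments (-0.20 to 0.02). Alternatives, DESeq2 1.42.0 among them, covered scaling, filter, tool, block, samples, replicates, depth and the read-through row. Figures used matplotlib 3.10.9.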

Additional observations from a re-analysis of the deposited data

Results flagged for a closer look

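For 5 of the 10 genes the change under sorafenib differed between the polysome pool and the light pool by the interaction test (edgeR quasi-likelihood test, adjusted over all tested genes), 4 of them greater on polysomes and 1 lower, against 12.8% and 10.7% of all tested genes. The difference was 1.71 on the log2 scale for HSPA9, 1.88 for HSPD1, -2.41 for HSPE1, 1.93 for LONP1 and 1.11 for CLPX. CLPX is the least firm of the 5, since 6 of 21 settings put its adjusted p above the threshold.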

How the results depend on the processing

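Of 1110 values of the 10 genes under alternative settings, 982 kept direction and side of the threshold, 65 were no longer called, 41 became called and 22 changed sign. On polysomes HSPA9, HSPD1, HSPE1, TRAP1, LONP1, CLPX, YME1L1 and AFG3L2 kept their calls in all 23 settings, and the interaction of HSPA9, HSPD1, HSPE1 and LONP1 in all 21. The cause of the changes below was not tested.

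With library totals as the scale, 3650 genes rose and 1316 fell in the light pool (6 members higher, HSPD1 0.324, CLPP 0.185), 1210 had a higher interaction (2 members lower), 5587 were higher and 914 lower on polysomes than in the light pool in sorafenib cultures (8 members higher, HSPE1 0.149), and 7314 and 876 in vehicle cultures (7 members higher, 0 lower, HSPD1 0.291, TRAP1 0.550, CLPP 0.858, CLPX 0.190). With no filter, 1663 genes fell on polysomes (1 member lower), 0 members rose in the light pool, 663 genes had a lower interaction, 4719 were higher on polysomes in sorafenib cultures (8 members, HSPE1 0.185), and in vehicle cultures 0 members were lower and CLPP was at 0.0691. TMM with vehicle polysome library 1 as reference left 1 member lower on polysomes in vehicle cultures, DESeq2 put 1 lower in sorafenib cultures, and only the groups compared gave HSPD1 0.00603 in the light pool.

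Without both shallow sorafenib light libraries, where the 1 library left is taken to vary as other groups do, 1333 genes fell in the light pool (HSPD1 0.244, CLPP 0.310), 2 members had a lower interaction, and 1241 genes were higher and 920 lower on polysomes in sorafenib cultures (1 member lower). Thinned to the smallest total, 1727 genes rose and 1803 fell on polysomes (SPG7 -0.217), 897 and 966 in the light pool (1 member higher, CLPX -0.0920), 803 and 883 had a higher and lower interaction, 642 and 963 were higher and lower on polysomes in sorafenib cultures (3 members higher, SPG7 -0.0391) and 1051 and 1181 in vehicle cultures (SPG7 -0.330).

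Leaving out 1 library at a time gave 2577 (without vehicle light library 2) to 4059 genes lower on polysomes with 1 to 2 members lower, 1412 (without sorafenib light library 1) to 2877 genes lower in the light pool with 0 to 5 members higher (HSPD1 -0.266 to 0.206, CLPP -0.580 to 0.133), and 813 (without vehicle light library 2) to 1612 genes with a lower interaction and 1 to 2 members lower. In sorafenib cultures it gave 1459 to 3441 (without sorafenib light library 3) genes higher on polysomes, 946 (without sorafenib light library 1) to 2491 lower, 3 (without sorafenib polysome library 1) to 8 (without sorafenib light library 3) members higher, 0 to 1 lower (without sorafenib light library 2) and HSPE1 -0.763 to 0.0448. In vehicle cultures 0 (without vehicle polysome library 3 or vehicle light library 2) to 2 members were lower, with CLPP -0.0458 to 0.0589. The log2 difference in the ratio of YME1L1 to AFG3L2 was -0.118 to 0.0366 on polysomes and -0.00943 to 0.216 in the light pool.

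With the replicate block on numbers, which do not pair the treatments, 7 members rose and 2 fell on polysomes (HSPE1 -2.07), and YME1L1 in the light pool was no longer called (0.600, adjusted p = 0.0544 by edgeR). With the replicate block on culture, which pairs the pools, HSPA9 was called higher on polysomes in sorafenib cultures (0.756, adjusted p = 0.0459 by edgeR), and no other call of a member changed. In that setting the comparisons of sorafenib with vehicle came from limma (voom, with a shared correlation within a culture). The comparisons of pools and the interaction came from edgeR. Depth limits the sorafenib light group most, with 7 counts of CLPX in its shallowest library.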
